A study of Mus musculus with 6 samples.

Results

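NF-YA occupancy was examined at 10 genes of the AP-1 and immediate early class, namely *Jun*, *Junb*, *Jund*, *Fos*, *Fosb*, *Fosl1*, *Fosl2*, *Atf3*, *Egr1* and *Ier2*. The genes were chosen by name, and their peaks were the entries of the NF-YA CUT&RUN peak table that carried one of these symbols. Of the 10 genes, 7 had at least 1 annotated peak, and together they held 10 of the 9056 peaks in the table. *Fosl1*, *Fosl2* and *Atf3* had none.

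All samples were muscle stem cells (MuSCs), which regenerate skeletal muscle fibres, from wild-type C57BL/6 mice, grown in vitro and labelled as activated and proliferating. In CUT&RUN an antibody tethers a nuclease to the protein of interest in permeabilised cells, and the short DNA fragments it releases are sequenced. The series comprised 6 samples, 3 with an antibody to NF-YA and 3 with control IgG. The 3 NF-YA libraries were analysed, and IgG values were not analysed here. These samples give no RNA levels, so neither the expression of these genes nor the markers of MuSCs could be checked, and there was no second condition to compare. Values are the reads in a peak after size-factor scaling of each library, which the authors rounded to integers, and they are called normalised reads below. Summed over all peaks they reached 319455, 335280 and 341177 in replicates 1, 2 and 3, but 1 read was worth an estimated 0.670, 1.48 and 1.02 normalised reads in turn, so that about 477033, 226901 and 334615 reads in peaks lay behind these sums. Replicate 2 thus had the fewest estimated reads in peaks, which is not the total depth of the library.

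AP-1 is a family of dimeric transcription factors built from Jun and Fos proteins, with ATF members as further partners, and it binds the site TGACTCA. Immediate early genes are switched on within minutes of a stimulus without the need for new protein, and in MuSCs *Fos*, *Jun* and *Egr1* are known to respond quickly to muscle injury and to the handling of tissue. NF-Y is a trimer of NF-YA, NF-YB and NF-YC that recognises the CCAAT box, a promoter element usually found a short distance upstream of the transcription start site (TSS), and NF-YA is the subunit that makes the sequence-specific contact. Serum response factor (SRF) binds a different element, the CArG box (CC, 6 bases that are A or T, then GG), which is known from the promoters of *Fos* and *Egr1*.

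The CCAAT boxes under the peaks are printed first, because they are what NF-YA recognises. Each is given 5′ to 3′ on the strand that reads CCAAT, with the 5 bases of the box in capitals, as read from the genome assembly GRCm38.p6 (mm10). The 3 Jun family promoters carried these boxes.
*Jun*, chr4:95052271-95052299, minus strand: gaacgacgcaagCCAATgggaaagcctcg
*Junb*, chr8:84978768-84978796, minus strand: ctcccgcgtcggCCAATcggagtgcactt
*Jund*, chr8:70698852-70698880, plus strand: cgtcacctcgcgCCAATggcgagcggggg

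All 3 boxes read CCAAT on the strand of the gene, and their first base lay 65 bp upstream of the TSS in *Jun*, 66 bp in *Junb* and 85 bp in *Jund*. The boxes of *Jun* and *Junb* also matched a longer NF-Y consensus, in which 2 purines precede CCAAT and C or G and then a purine follow it. The box of *Jund* did not.

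The strongest peak of the set, within *Fosb*, held 3 boxes that all matched the longer consensus, and they are shown to compare with the promoter boxes.
*Fosb* box 1, chr7:19308217-19308245, plus strand: ctgaatccctggCCAATcagagccctggg
*Fosb* box 2, chr7:19308596-19308624, minus strand: cgcgagctttagCCAATcagcgttccctt
*Fosb* box 3, chr7:19308622-19308650, plus strand: gcgccgcgacagCCAATcacaaagccacg

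*Fos* had a peak without CCAAT. It is printed whole, on the strand of the gene, so that its content can be read, with its CArG box in capitals.
*Fos* peak, chr12:85473522-85473674, plus strand: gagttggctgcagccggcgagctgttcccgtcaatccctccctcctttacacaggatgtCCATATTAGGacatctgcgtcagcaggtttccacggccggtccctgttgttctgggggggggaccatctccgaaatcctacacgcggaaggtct

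Of the 10 genes, 7 had an annotated peak, against 19.0% of all 21938 protein-coding genes. A promoter peak, meaning a centre at most 1000 bp from the annotated gene's TSS, was present at 4 of 10 genes (*Jun*, *Junb*, *Jund* and *Fos*), against 14.8% of protein-coding genes. By peaks this was 4 of 10, against 41.4% of all 9056 peaks. The genes were picked with earlier results of these data known and no test of these shares was made. The highest peak per gene had a median of 98.0 normalised reads per kb of peak over the 7 genes, beside 114 per kb over the 4171 protein-coding genes with a peak.

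*Jun* encodes c-Jun, the founding AP-1 subunit. Its proximal peak (ENSMUSG00000052684, chr4:95052104-95052467, 364 bp) spanned the TSS with a centre 64 bp upstream of it, and held 30, 62 and 71 normalised reads in replicates 1, 2 and 3 (54.3 ± 21.5, SD, n = 3). Replicate 1 was the low library here, with less than 50% of the value of either other library. The CCAAT box printed above lay 1 bp from the centre of the peak. The peak also lay near the start of *Junos*, a non-coding gene transcribed the other way from *Jun*, so the reads cannot be assigned to either gene. The 110 bases before the TSS of *Jun* are shown because the centre of the peak, its CCAAT box and a GC box (GGGCGG, read here on the other strand as CCGCCC, the core of the site of Sp1 family factors) all fall within them.
*Jun*, chr4:95052223-95052332, minus strand, CCGCCC and CCAAT in capitals: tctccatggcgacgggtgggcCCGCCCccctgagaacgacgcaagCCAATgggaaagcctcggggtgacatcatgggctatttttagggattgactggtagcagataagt

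A distal *Jun* peak (chr4:95053230-95053399, 170 bp) was centred 1093 bp upstream of the TSS, in an exon of *Junos*. It held 9, 3 and 16 normalised reads (9.33 ± 6.51). The value in replicate 2 lay below the level that 3 reads give in that library, 4.43, and this was the only peak of the set that did not exceed 3 reads in all libraries. Leaving out replicate 2 raised its mean to 12.5, and leaving out replicate 3 lowered it to 6. The share of all peaks below it, 31.6%, became 43.7% and 14.3% in turn. It held none of the motifs searched.

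*Junb* encodes JunB, which is often a weaker activator than c-Jun and can oppose it. Its proximal peak (ENSMUSG00000052837, chr8:84978665-84978929, 265 bp) spanned the TSS, centred 79 bp upstream, and held 25, 35 and 36 normalised reads (32 ± 6.08, n = 3). The 3 libraries lay close together, with a coefficient of variation (CV) of 19.0% against 18.2% from counting alone at this depth. Its CCAAT box lay 15 bp from the centre.

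A distal *Junb* peak (chr8:84981145-84981408, 264 bp), 2559 bp upstream of the TSS and between genes, held 21, 24 and 13 normalised reads (19.3 ± 5.69). Replicate 3 was the lowest here, unlike at any other peak of the set. This peak is printed whole on the strand of the gene because it was the only peak of the set that held CCAAT and the AP-1 site TGACTCA together, the latter read as TGAGTCA on this strand.
*Junb* distal peak, chr8:84981145-84981408, minus strand, TGAGTCA and CCAAT in capitals: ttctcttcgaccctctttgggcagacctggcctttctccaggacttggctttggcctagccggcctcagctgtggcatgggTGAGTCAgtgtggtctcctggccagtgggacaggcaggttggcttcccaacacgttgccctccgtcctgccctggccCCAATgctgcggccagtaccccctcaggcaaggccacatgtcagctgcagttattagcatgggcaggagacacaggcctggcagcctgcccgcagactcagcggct

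*Jund* encodes JunD, the Jun protein that is present in many resting cells. Its single peak (ENSMUSG00000071076, chr8:70698739-70699010, 272 bp) also spanned the TSS, centred 74 bp upstream, and held 25, 10 and 17 normalised reads (17.3 ± 7.51, n = 3). Replicate 1 was the highest library here, whereas it was the lowest at the proximal peaks of *Jun* and *Junb*. The CCAAT box lay 9 bp from the centre, and 3 GC boxes stood within 121 bp upstream of the TSS. The start of the gene model *Gm11175* lay within 1000 bp of the same peak. At the promoters of these 3 genes, then, the NF-YA peak covered the TSS and a CCAAT box on the gene strand.

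**Figure D1:**
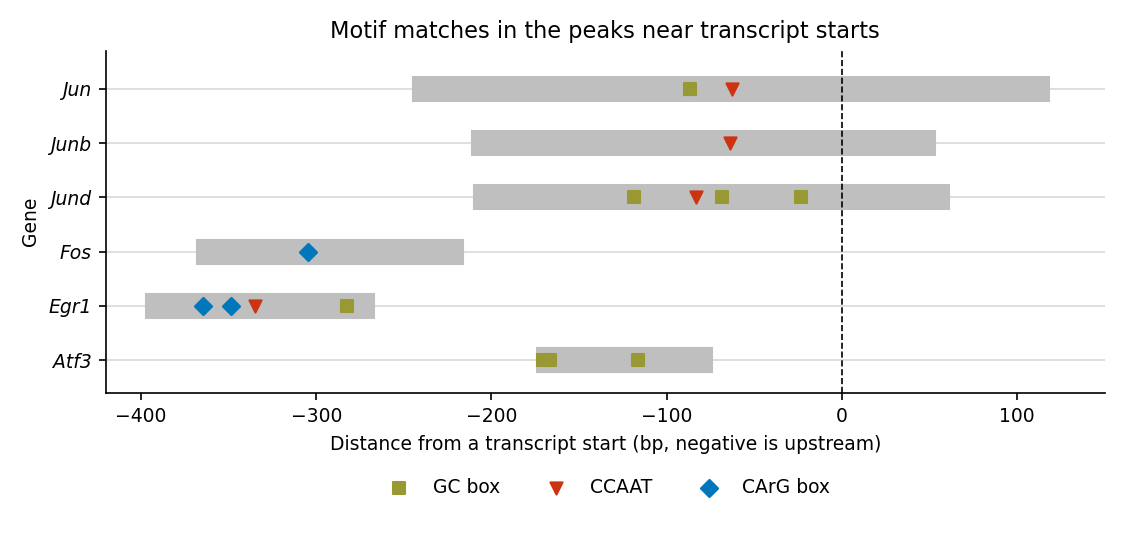
Positions of the peaks (grey boxes) and motif matches (markers) around a transcript start, in bp with negative values upstream. The peaks of *Jun*, *Junb* and *Jund* reach across the start at 0 and hold CCAAT between 60 and 90 bp upstream, while the peaks drawn for *Fos*, *Egr1* and *Atf3* lie wholly upstream of 0. For *Egr1* and *Atf3* the start at 0 is an internal transcript start, not the 5′ end of the gene.

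*Fosb* encodes FosB and, by splicing, the shorter and long-lived ΔFosB. Its proximal peak (ENSMUSG00000003545, chr7:19307978-19308797, 820 bp) was centred 1663 bp downstream of the TSS, in the first intron of 6 coding transcripts, and overlapped a single-exon non-coding transcript at its centre. It held 176, 186 and 259 normalised reads (207 ± 45.3, n = 3), which put it at rank 233 of 9056 peaks, with 97.4% of all peaks below it. Replicate 3 was the high library, and the CV of 21.9% exceeded the 7.14% that counting alone gives. It was the longest peak of the set, beside a median of 197 bp over all peaks, and per kb its level was 252 normalised reads, above 91.5% of all peaks. No annotated transcript start lay within 1000 bp of its centre. Its CCAAT boxes 1, 2 and 3 lay 157, 222 and 248 bp from the centre, box 1 on the side away from the TSS and the other two on the side that faces it, and none lay within 50 bp of the centre. It also held 3 GC boxes.

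The distal *Fosb* peak (chr7:19316780-19317060, 281 bp), 6869 bp upstream of the TSS and between genes, held 15, 24 and 17 normalised reads (18.7 ± 4.73). It had no CCAAT and 2 matches of the AP-1 site TGACTCA, which are printed because no other peak of the set held more than 1.
*Fosb* distal, chr7:19316770-19316798, plus strand, TGACTCA in capitals: caccctgtcccTGACTCAggctggagagc
*Fosb* distal, chr7:19316989-19317017, plus strand, TGACTCA in capitals: tttctctaaggTGACTCAgatgccgagat

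*Fos* encodes c-Fos, the classical immediate early protein and partner of c-Jun. The peak printed above (ENSMUSG00000021250, 153 bp) was centred 292 bp upstream of the TSS and held 7, 16 and 22 normalised reads (15 ± 7.55, n = 3). Replicate 1 was less than 50% of the other libraries, and about 10, 11 and 22 reads lay behind the values. The CArG box began 309 bp upstream of the TSS and lay 13 bp from the centre of the peak. The 250 bases before the 5′ end of *Fos* held no CCAAT on the gene strand.

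*Fosl1* and *Fosl2* encode Fra-1 and Fra-2, the Fos proteins that lack the strong activation domain of c-Fos. The peak nearest to a *Fosl1* start was 9700 bp away, was annotated to *Ccdc85b* and held 11, 7 and 11 normalised reads (9.67 ± 2.31). The nearest peak to a *Fosl2* start lay 168553 bp away and held 4, 6 and 0 (3.33 ± 3.06), so no *Fosl2* start had a peak within 10000 bp.

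*Atf3* encodes a stress-induced partner of Jun proteins. No peak carried its symbol, but a weak peak with no gene identifier (chr1:191183414-191183514) lay 124 bp upstream of an internal *Atf3* transcript start, inside an intron and 34575 bp from the 5′ end of the gene. It held 3, 7 and 15 normalised reads (8.33 ± 6.11), no CCAAT and 3 GC boxes.

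*Ier2* encodes a small nuclear protein of the early response. Its peak (ENSMUSG00000053560, chr8:84664020-84664197, 178 bp) was centred 1255 bp upstream of the TSS and held 9, 15 and 14 normalised reads (12.7 ± 3.21, n = 3). Its box, shown because it was the farthest from a peak centre outside *Fosb*, lay 68 bp away.
*Ier2*, chr8:84664163-84664191, plus strand: gagcacgcccctCCAATccagccctcagg

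*Egr1* encodes a zinc finger factor whose gene is a target of SRF. Its peak (ENSMUSG00000038418, chr18:34860810-34860940, 131 bp) held 11, 12 and 12 normalised reads (11.7 ± 0.577, n = 3). The 3 libraries were almost equal, with a CV of 4.95% where counting alone gives 30.1%. The centre lay 1052 bp downstream of the 5′ end of the gene model, in the first exon of a transcript of 2 exons, but 332 bp upstream of another annotated start. The peak held 1 CCAAT box 3 bp from the centre and 2 CArG boxes 17 and 33 bp from it, so it was the only peak of the set with both elements.

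**Figure D2:**
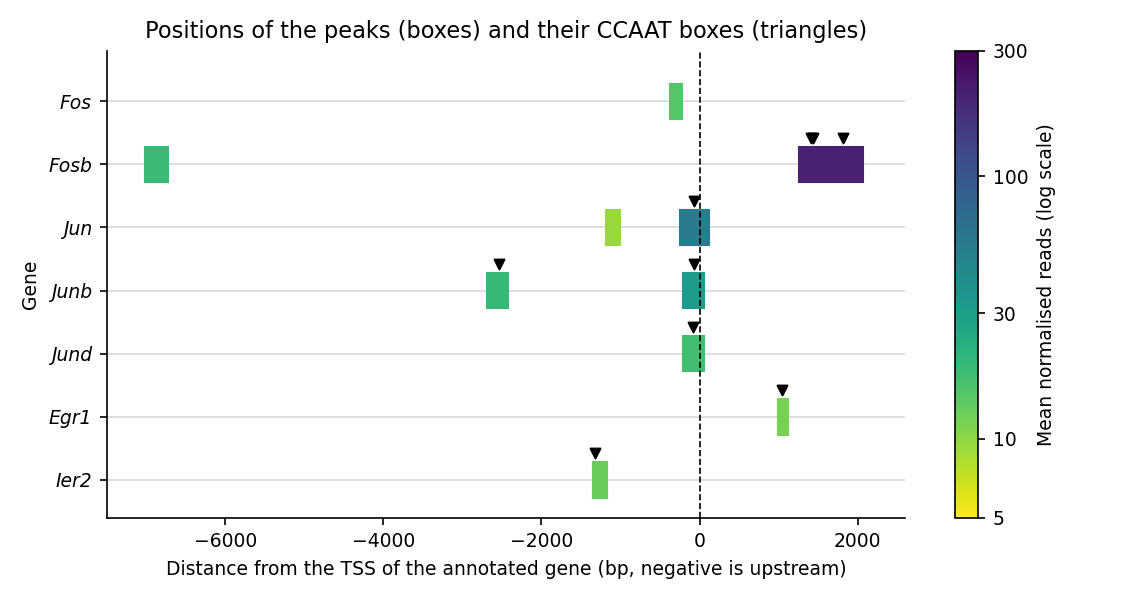
All 10 peaks (boxes, coloured by mean normalised reads on a log scale) and the first base of their CCAAT boxes (triangles), by distance from the TSS of the annotated gene in bp. *Jun*, *Junb* and *Fosb* have a pair of peaks each, and the darkest box is the *Fosb* peak 1663 bp downstream of the TSS.

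Since the deposited values are not corrected for peak length, peaks of different genes were ordered per kb. The order ran from *Fosb* proximal (252 ± 55.3 normalised reads per kb, SD, n = 3) through *Jun* proximal (149 ± 59.2), *Junb* proximal (121 ± 23.0), *Fos* (98.0 ± 49.3), *Egr1* (89.1 ± 4.41), *Junb* distal (73.2 ± 21.5), *Ier2* (71.2 ± 18.1), *Fosb* distal (66.4 ± 16.8) and *Jund* (63.7 ± 27.6) to *Jun* distal (54.9 ± 38.3). Of the 9 neighbouring pairs in this order, only the first differed by more than the spread: *Fosb* proximal exceeded *Jun* proximal by 132, 56.5 and 121 normalised reads per kb in replicates 1, 2 and 3. The other 8 pairs did not differ beyond their spread. The difference between *Fosb* proximal and *Jun* proximal on the log2(value + 1) scale of reads per peak was 2.51, 1.57 and 1.85 in the 3 libraries (1.98 ± 0.48). An exact two-sided permutation test by sign flips gave p = 0.25, the smallest that 3 libraries allow. With 3 libraries this test could thus not reach significance at any effect size. The pair was also chosen as the strongest and second strongest peaks by their means in these same libraries. The choice largely set the sign of the difference, so no conclusion is drawn from the test. Per kb the mean difference was 0.82 on the log2 scale.

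**Figure D3:**
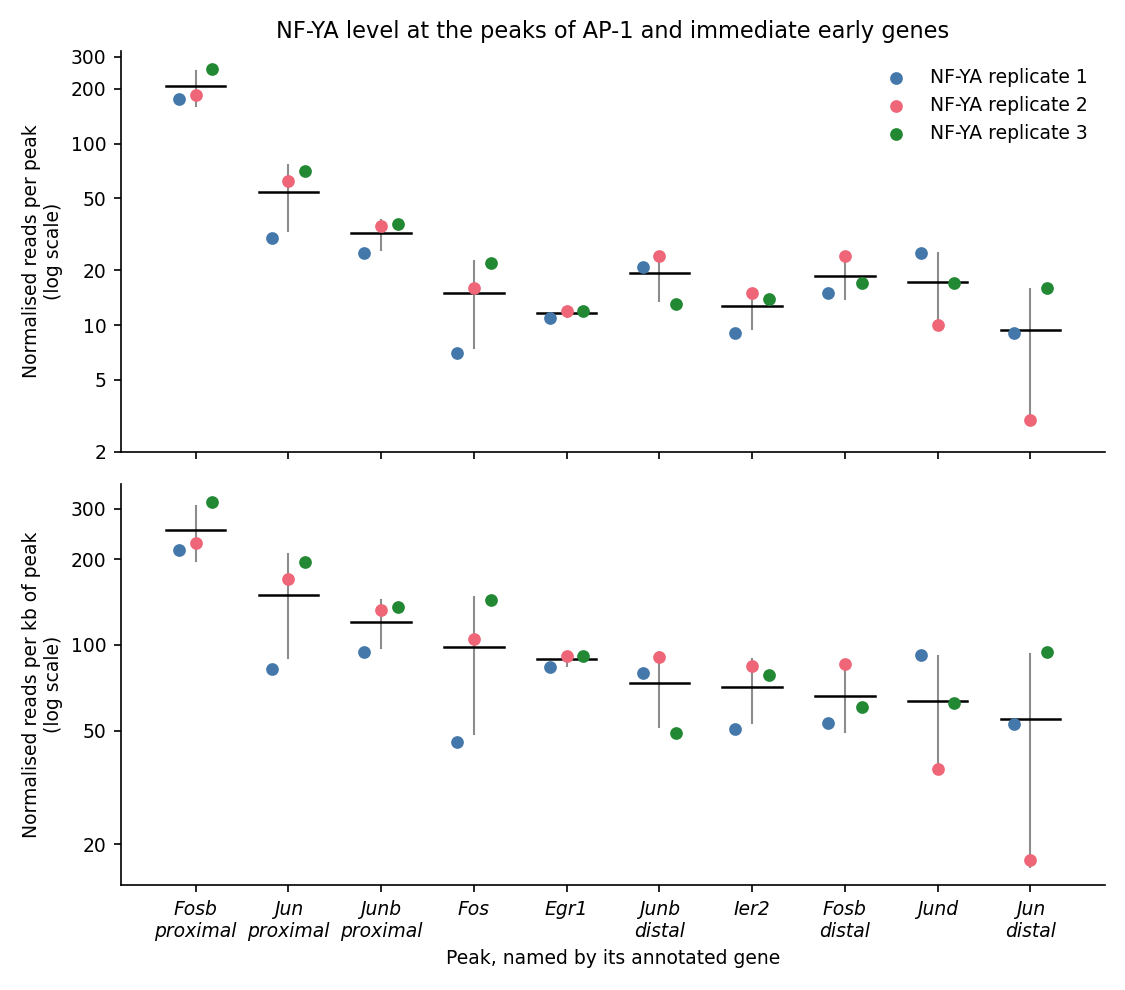
Normalised reads of the 10 peaks per peak (upper panel) and per kb of peak (lower panel) in the 3 NF-YA libraries (points), on log axes, with the mean (black line) and 1 SD to each side (grey line). The points of *Fosb* proximal, from 176 to 259 per peak, lie above those of every other peak in both panels, and the points of most weaker peaks overlap.

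The 10 peaks summed to 328, 387 and 477 normalised reads in replicates 1, 2 and 3, so the highest library was 1.45 times the lowest. Over all peaks this ratio was 1.07. The 2 ratios are not alike. Size-factor scaling evens out the libraries over all peaks, and no sums over other sets of 10 peaks are given beside these. The larger ratio is therefore not read as a trait of these genes, and its cause was not tested. Without the *Fosb* proximal peak the sums were 152, 201 and 218, a ratio of 1.43. Replicate 1 was the lowest library at 7 of the 10 peaks, replicate 2 at 2 and replicate 3 at 1. Over all peaks the median was lowest in replicate 1 too, at 14 normalised reads against 16 in replicate 2 and 15 in replicate 3. No share over all peaks is given for this count. Replicate 1 was also sequenced with shorter reads than the others, and the part of this in the difference was not tested. At 8 of the 10 peaks the CV over libraries exceeded that from counting alone, again without a share over all peaks beside it.

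Among all peaks, those of the set lay on both sides of the median level. All but the distal *Jun* peak, 9 of 10, exceeded 3 reads in every library, beside 80.7% of all peaks. Their median mean level was 18 normalised reads, beside 15.0 over all peaks, and 6 of the 10 lay above that all-peak median. On percentiles of reads per peak they ranged from 31.6 for *Jun* distal to 97.4 for *Fosb* proximal, with *Jun* proximal at 82.5 and *Junb* proximal at 71.8. Their median length was 264.5 bp, beside 197 bp over all peaks, with the peaks of *Fos*, *Ier2*, *Egr1* and *Jun* distal below the latter. Their median content of G and C was 61.8%, against 55.9% over all peaks.

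**Figure D4:**
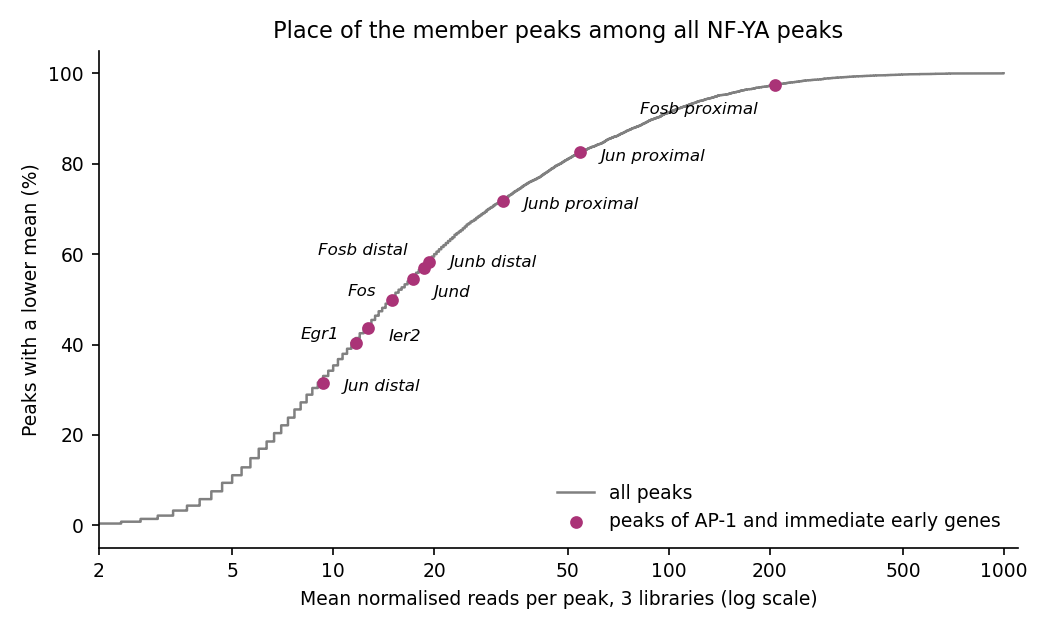
Share of all 9056 peaks with a lower mean (vertical axis, percent) against the mean of normalised reads per peak (horizontal axis, log scale), as a grey curve with the 10 peaks marked. *Fosb* proximal (97.4), *Jun* proximal (82.5) and *Junb* proximal (71.8) are set apart to the right, and the other 7 peaks lie between 31.6 and 58.2 on the vertical axis.

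Motifs were searched on both strands, and a match describes the sequence only. CCAAT lay within 50 bp of the centre of 5 of the 10 peaks (both *Junb* peaks and those of *Jun*, *Jund* and *Egr1*), against 52.9% of all peaks, and anywhere in 7 peaks, against 64.5%. These shares are near the background. The longer consensus lay within 50 bp of the centre in 2 peaks, against 25.0% of all peaks, and anywhere in 3, against 33.9%. TGACTCA lay in 2 peaks, both distal, against 15.9% of all peaks, and within 50 bp of the centre in 1, against 9.71%. The related CREB site TGACGTCA lay in 0 peaks, against 1.42% (0.729% within 50 bp of the centre). GGGCGG lay in 5 peaks, against 35.7%, and within 50 bp of the centre in 3, against 21.3%. The CArG box, rare among NF-YA peaks at 1.37%, lay in 2 peaks, those of *Fos* and *Egr1*, and in both within 50 bp of the centre, where it occurred in 0.652% of all peaks. In the 250 bases before the 5′ end of the gene, only *Jun*, *Junb* and *Jund* of the 10 genes held CCAAT on either strand, beside 36.0% of protein-coding genes, and each held it on the gene strand, beside 20.7%. The 3 genes with CCAAT at this place were thus the 3 whose peak spanned the TSS. This holds for the 5′ end of the gene only. In the 250 bases before other annotated transcript starts, CCAAT also lay at *Fos*, *Fosb*, *Fosl2*, *Atf3* and *Egr1*. It was on the gene strand there in *Egr1* and in 1 match of *Atf3*.

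The peaks of other genes with values over the 3 libraries nearest to those of *Fosb* proximal were those of *Ccdc189* (165, 192 and 246 normalised reads), *Tom1* (170, 194 and 235) and *Tedc1* (192, 186 and 233). Their Euclidean distances from *Fosb* proximal in log2(value + 1) over 3 libraries were 0.127, 0.160 and 0.197. This distance takes in the level of a peak as well as its pattern over libraries.

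The surrounding pathway was described with a list of 92 further genes. Of these, 51 had an annotated peak, or 55.4%, against the 19.0% of protein-coding genes given above, and 38 had a promoter peak, against 14.8%. This list too was chosen with earlier results of these data known. No test of its shares was made, so they are a description only. Among partners of AP-1 and related dimers, 8 of 14 genes had a peak. By reads per peak, *Nfe2l1*, a regulator of proteasome genes, led this group with 195, 247 and 250 normalised reads (231 ± 30.9). *Mafk*, a small Maf protein, followed with 36, 50 and 36 (40.7 ± 8.08), at a peak 3722 bp from its TSS. Among CREB and ATF factors, 7 of 17 had a peak. *Creb3l2*, a membrane-bound CREB relative, held 173, 186 and 172 (177 ± 7.81), and *Atf4*, the effector of the integrated stress response, held 111, 189 and 190 (163 ± 45.3).

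Of the factors that act upstream of immediate early genes, 3 of 6 had a peak. *Srf* itself held 148, 226 and 214 normalised reads (196 ± 42), at a peak 3084 bp from its TSS, and *Elk1*, its ternary complex partner, held 109, 109 and 97 (105 ± 6.93). Of the MAP kinase genes, 4 of 9 had a peak, led by *Mapk9*, which encodes JNK2, with 83, 84 and 79 (82 ± 2.65), and *Map2k1*, which encodes MEK1, with 37, 34 and 29 (33.3 ± 4.04). Other immediate early genes had a peak in 29 of 46 cases. *Per1*, a circadian repressor that is also induced acutely, had the highest, with 382, 433 and 358 (391 ± 38.3), and *Klf10*, a TGF-β-induced repressor, held 172, 139 and 178 (163 ± 21). Per kb, the median highest peak was 95.2 normalised reads for the AP-1 partners, 290 for the CREB and ATF factors, 264 for the upstream factors, 127 for the kinases and 141 for the other immediate early genes, beside the 98.0 of the genes above. The differences between groups were not tested.

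**Figure D5:**
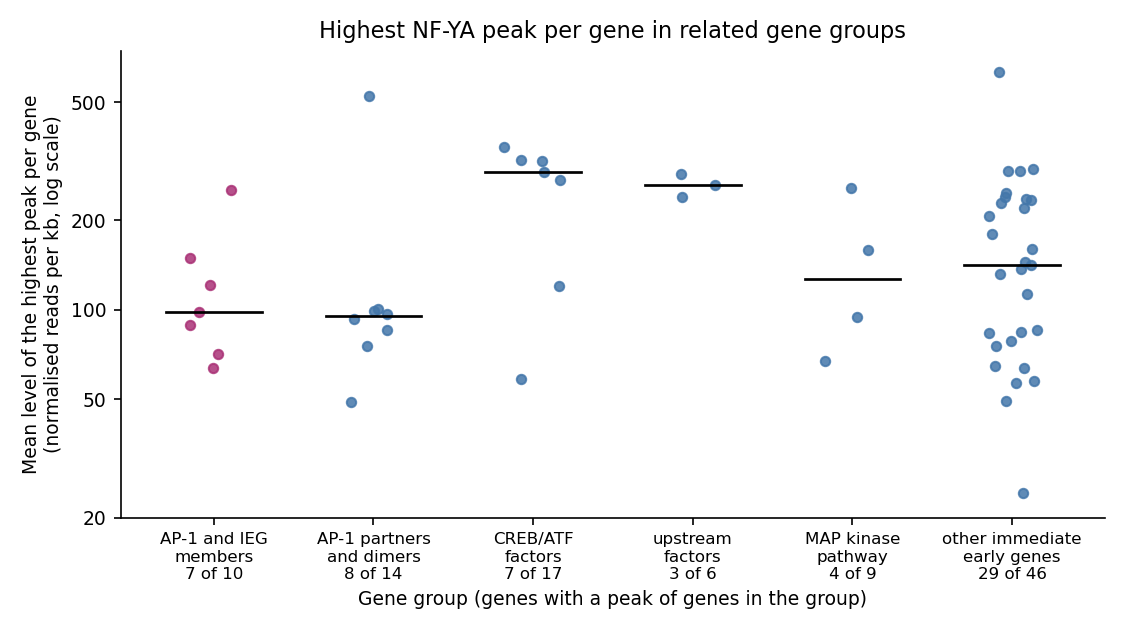
Mean level of the highest peak of each gene that had one, in normalised reads per kb on a log axis, for the AP-1 and immediate early genes (left, purple) and the groups of the wider list (blue), with black lines at the medians. The medians run from 95.2 for the AP-1 partners to 290 for the CREB and ATF factors, and the points of all groups overlap in part with those of the first.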

How the data were processed

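CUT&RUN libraries from cultured wild-type MuSCs were used, 3 with NF-YA antibody, while the 3 IgG libraries were not analysed here. The deposited values are a score, namely peak reads that the authors scaled by DESeq2 (1.30.0) size factors and rounded. Per the study's methods and the submitters' processing notes, reads were trimmed with Trimmomatic (0.39), aligned to mm10 with STAR (2.7.9a) and deduplicated with Picard (2.25.5). Peaks were called per NF-YA library against IgG, unified, counted with featureCounts and annotated to the nearest gene with a TSS close enough. Peaks were therefore selected on the libraries whose levels are given, and size-factor scaling hides a change shared by all peaks. At its quality thresholds the study lists more peaks for replicate 1 than for either other NF-YA library. In how many libraries each peak was called was not examined. The study describes the libraries as biological replicates.

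The value of 1 read per library was estimated by maximum likelihood from the rounding pattern. In 6 simulated libraries of 9056 peaks the error was at most 0.00825%, and 600 of 600 implanted motifs were found. Starts were read as counted from 0 and are printed counted from 1. Gene models came from GENCODE M21. The annotated genes of 7 of the 10 peaks had identical bounds there, and those of 3 peaks (*Ier2* and both of *Junb*) differed. Sequences were read from GRCm38.p6, and none is printed for *Egr1*. CV from counting alone is that of Poisson reads at the observed mean. Floors and counting CVs cover counting error only. With normalised, rounded values no count model was used. The only test was the exact sign-flip test with a pseudocount of 1. Python 3.11.15, numpy 2.4.6, scipy 1.17.1, pandas 2.3.3, pysam 0.24.0 and matplotlib 3.10.9 were used.

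Members and lists were chosen with earlier results of these data known. Named were all 10 genes with every annotated peak, or the nearest peak where there was none, genes with a start within 1000 bp of such a peak, the 2 genes of each wider group with the highest mean peak, and the 3 peaks most like the strongest. The other genes and peaks named were added after their values were seen. Alternatives covered promoter limits, values per kb, another pseudocount, library rescaling, motif windows, a minimum mean of 10 and leaving out each replicate. Of the per-sample columns, 0 were without an assigned sample.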

Additional observations from a re-analysis of the deposited data

Results flagged for a closer look

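Peaks to which no gene was assigned stand outside the comparisons above. Within 30000 bp of a transcript start of the 10 genes, 3 such peaks exceeded 3 reads in all 3 libraries. The first lay 18397 bp upstream of *Fos* (chr12:85455297-85455689, 393 bp) and held 116, 114 and 121 normalised reads (117 ± 3.61, SD, n = 3), above 93.3% of all peaks, with 1 CCAAT box that matched the longer consensus. The second lay 22929 bp downstream of a *Fos* transcript start (chr12:85497569-85498111, 543 bp) and held 94, 105 and 84 (94.3 ± 10.5), above 90.4% of all peaks. It had 2 CCAAT boxes, neither within 50 bp of the centre, and 1 match of the longer consensus. Both were higher in every library than the peak assigned to *Fos*, and neither was tied to a gene by these data. The third was the weak peak at the internal *Atf3* start (8.33 ± 6.11).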

How the results depend on the processing

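Over 103 alternatives, 94 values stayed within the bounds set for them, 9 moved and 0 reversed. The number of genes with a promoter peak was 4 at 1000 bp and 7 at 5000 bp. It was 6 within 1000 bp of any transcript start, where *Egr1* and *Atf3* joined. The counts at 5000 bp and at any start have no share over all genes beside them. The median percentile of the 10 peaks was 55.8 by reads per peak and 50.9 per kb, and without replicates it ranged from 53.7 to 56.7. Peaks with CCAAT at the centre numbered 5, and 2 with the longer consensus. At single peaks, the percentile moved by more than the spread between libraries 5 times, in values per kb: 91.5 for *Fosb* proximal, 44.4 for *Junb* distal, 37.7 for *Fosb* distal, 35.0 for *Jund* and 57.4 for *Egr1*. That of *Jun* distal, 31.6, fell to 14.3 without replicate 3 and rose to 43.7 without replicate 2, within its wide spread. The difference between the strongest peaks ranged from 1.71 to 2.18 (log2) on leaving out a replicate. Counting any transcript start within 10000 bp, 9 of the 10 genes had a peak. *Fosl1* entered through the peak annotated to *Ccdc85b*, and *Atf3* through the weak peak without a gene. No share over all genes is given under this looser rule, so the count is a description only. No paired analysis was possible because NF-YA and IgG libraries with the same number could not be paired, IgG values not being analysed here. Peaks were compared within libraries. The depth limits the weak peaks, with at most 37 reads per library behind 8 of the 10.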
